A study of Mus musculus with 24 samples.

Results

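The interferon response and antigen presentation genes Irf9, Ifi27, Ifitm3, Rsad2, Ifit3, Tap1, Tapbp, Psmb8 and B2m were followed through 6 groups of mouse glial progenitor cells (GPCs) on Illumina bead arrays. Every probe annotated with 1 of these 9 symbols was taken, which gave 16 of the 25697 probes on the array and 9 of the 16593 genes named there. The GPCs had been derived from embryonic stem cells and carried 1 conditional (flox) and 1 deleted (delta) allele of Dgcr8, whose product is needed to cut primary microRNA transcripts. The series set differentiated cells, cells without Dgcr8 and cells resupplied with a microRNA against their controls.

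The arrays fell into 2 sets that were normalized separately. Hybridization 1 held 3 arrays each of differentiated flox/delta cells, undifferentiated knockout (delta/delta) cells and undifferentiated flox/delta cells. Hybridizations 2 and 3 held 10 arrays of undifferentiated knockout cells, of which 3 had received let-7, 3 miR-125 and 4 a mock treatment. All cells were kept in N2 medium with EGF and FGF. For differentiation the growth factors were withdrawn, and B27 and 1% FBS were added. Knockout was induced with tamoxifen, 1 uM for 16 h and then 100 nM for 16 h. The labels list tamoxifen for knockout cells only and call the hybridization 1 knockout cells mock as well, so that genotype, drug and mock treatment cannot be told apart in that comparison. For the let-7, miR-125 and mock groups, replicates 1 to 3 were separate tamoxifen treatments. Mock replicate 1 was hybridized in both hybridization 2 and hybridization 3, and whether the same RNA was used is not stated. For hybridization 1 the labels do not say whether replicates came from separate cultures, so its p-values reflect a spread that may be technical. The labels say neither which family member of let-7 or miR-125 was given nor how.

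Interferons are secreted proteins that cells release on sensing viral nucleic acids. Type I interferon activates a transcription factor complex that contains IRF9 and binds interferon-stimulated response elements (ISREs) in the promoters of antiviral genes, whereas interferon gamma acts on gamma-activated sites (GAS). One class of induced genes serves antigen presentation: an immunoproteasome cuts proteins into peptides, the TAP transporter carries them into the endoplasmic reticulum, tapasin helps to load them onto MHC class I heavy chains, and beta-2 microglobulin is the constant light chain of that complex. Glial cells can mount this response, and the resting brain is known for low MHC class I levels.

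Promoters from RefSeq (GRCm38.p6) were found for 8 of the 9 genes. In windows of 250 bases before to 50 bases after each start site, an ISRE core was searched on both strands as GAAA repeated after any 2 bases (TTTC repeated likewise on the other strand), and a GAS core as TTCNNNGAA, which reads the same on both strands. The 2 motifs match, partly overlapping in the case of Ifitm3, in 3.44% and 8.3% of all 32851 promoters of this length. Ifitm3, Rsad2, Ifit3 and B2m held an ISRE core, Ifitm3 and Psmb8 a GAS core, and Irf9, Tap1 and Tapbp neither. The Ifitm3 matches lay after the start site. These letters are a description and show no binding. The 250 bases upstream of 3 genes are printed because these genes share the ISRE core yet did not move alike in the arrays below, capitals marking each match, and each sequence reads towards the gene's start.
Rsad2, chr12:26456453-26456702, minus strand: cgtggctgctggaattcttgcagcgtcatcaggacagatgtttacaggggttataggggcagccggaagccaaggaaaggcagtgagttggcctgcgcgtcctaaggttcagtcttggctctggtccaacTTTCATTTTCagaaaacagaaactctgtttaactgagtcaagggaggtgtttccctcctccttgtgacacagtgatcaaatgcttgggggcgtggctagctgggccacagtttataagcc
Ifit3, chr19:34583279-34583528, plus strand: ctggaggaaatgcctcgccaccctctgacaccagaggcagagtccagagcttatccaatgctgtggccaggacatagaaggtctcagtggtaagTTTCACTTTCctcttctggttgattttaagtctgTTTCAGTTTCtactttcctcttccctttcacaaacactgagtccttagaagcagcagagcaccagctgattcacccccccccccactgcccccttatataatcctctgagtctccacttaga
B2m, chr2:122147437-122147686, plus strand: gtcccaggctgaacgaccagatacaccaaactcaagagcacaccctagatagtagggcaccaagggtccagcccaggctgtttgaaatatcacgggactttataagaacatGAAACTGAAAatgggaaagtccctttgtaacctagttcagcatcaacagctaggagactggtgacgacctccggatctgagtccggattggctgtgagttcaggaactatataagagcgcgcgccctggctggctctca

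The microRNA families given back differ in their seed, bases 2 to 8 of the mature strand, which pairs with target transcripts. The RefSeq entries of let-7a-5p and miR-125b-5p are shown as examples with the seed in capitals. The same seed is shared by 8 let-7 names and by 2 miR-125 names in that table.
let-7a-5p: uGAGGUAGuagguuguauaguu
miR-125b-5p: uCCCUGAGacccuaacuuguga

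Mean raw signal was at most 474 in hybridization 1, at least 1429 in hybridization 2 and 756 to 868 in hybridization 3, and the number of arrays limits the precision of every value. Dgcr8 itself had log2 signals of 6.80, 7.02 and 6.66 in knockout arrays and 7.29, 7.48 and 7.26 in undifferentiated flox/delta arrays, a difference of -0.52 ± 0.13 (SE, adjusted p = 0.00552). Whether its probe lies in the deleted part is not known. Of 11 listed names of glial progenitor and astrocyte markers, 9 or 10 were detected on every array of each group. Gfap, an astrocyte filament, was detected in differentiated cells only. The list held Fabp7 also under its synonym Blbp, so that gene counts under both names, here and in the summed signals below. Of 14 microglia and macrophage markers on the array, 0 were detected on every array of any group, and Ptprc, Cx3cr1, Itgam and C1qa were detected on none. Aif1, Tyrobp, Fcer1g, Laptm5 and Lyz2 were detected on part of the arrays of some groups. Mock arrays correlated at 0.979 to 0.985 within hybridization 3, mock replicate 2 among them, and at 0.953 to 0.962 between hybridizations.

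A probe was tested when it was detected (detection p under 0.05) on at least 3 arrays of its set, which 12 of the 16 probes were in both sets, for 8 of the 9 genes. The immunoproteasome gene Psmb8, 2 of 3 Ifit3 probes and 1 of 3 B2m probes were not tested. Signals are given as background-corrected, normalized log2 values, so that 1 unit is a doubling. Levels of the 2 sets and levels of different probes are not comparable.

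Differentiation was accompanied by higher signal of 4 of the 8 measured genes and lower signal of 3. Irf9, Ifi27, Ifit3 and Tapbp rose, by 0.66 to 1.54 log2 units, whereas Rsad2, Tap1 and B2m fell and Ifitm3 did not pass the test. By probe, 11 of 12 passed at an adjusted p under 0.05, 7 higher and 4 lower. The background was high: 53.7% of all 13280 probes tested passed in this comparison, 26.6% higher and 27.1% lower. The median difference of the 12 probes was 0.73, against -0.024 over all probes. In arrays, fewer cells with a transcript and less transcript per cell cannot be told apart.

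Loss of Dgcr8 in undifferentiated cells was accompanied by changes in 3 of the 8 measured genes. Ifi27 fell, Rsad2 rose and 1 of 2 Irf9 probes rose, while Ifitm3, Ifit3, Tap1, Tapbp and B2m did not pass. That is 4 of 12 probes, 2 higher and 2 lower, beside 49.6% of all probes, 25.1% higher and 24.5% lower. The median difference was 0.16, against 0.011 over all probes. Between differentiated flox/delta and knockout cells, 11 of 12 probes passed, 7 higher and 4 lower in differentiated cells, beside 67.4% of all probes, 32.5% higher and 34.9% lower, with a median difference of 0.74 against -0.043 over all probes. The differentiation and knockout comparisons share the undifferentiated flox/delta arrays.

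**Figure D1:**
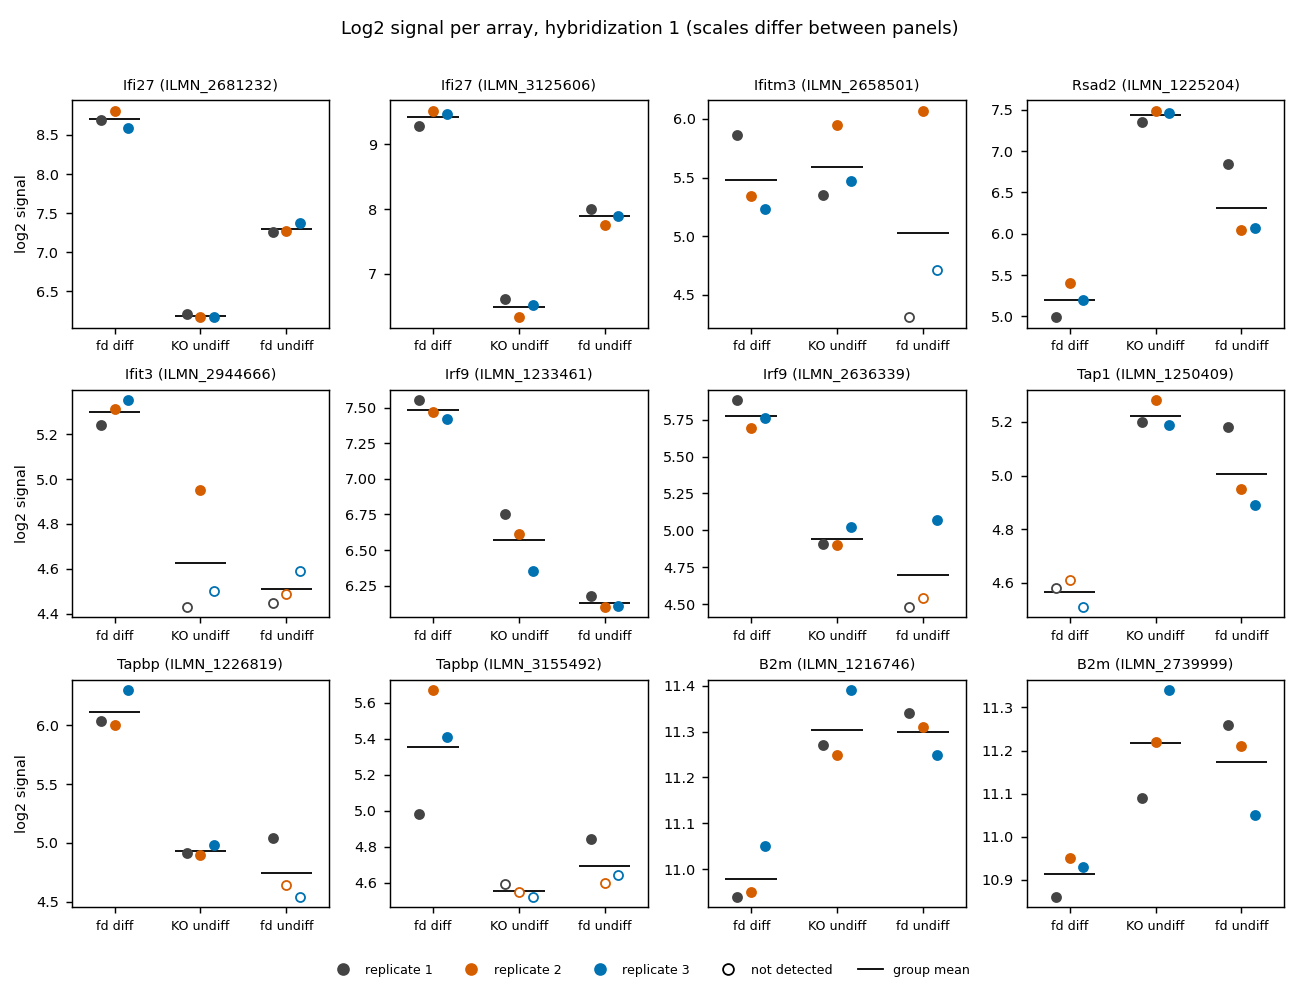
Log2 signal of each tested member probe in hybridization 1, with differentiated flox/delta, undifferentiated knockout and undifferentiated flox/delta cells from left to right, 1 point per array, open where the probe was not detected, and a bar at the group mean. Ifi27 was highest in differentiated cells and lowest in knockout cells, and Rsad2 had the opposite order.

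The transcription factor subunit gene Irf9 was highest after differentiation on both probes. Probe ILMN_1233461 gave 7.55, 7.47 and 7.42 in differentiated arrays, 6.75, 6.61 and 6.35 in knockout arrays and 6.18, 6.10 and 6.11 in undifferentiated flox/delta arrays. The 3 groups did not overlap. The differentiated arrays were 1.35 ± 0.11 above the undifferentiated flox/delta arrays (adjusted p = 8.92e-07), the knockout arrays 0.44 ± 0.11 above them (adjusted p = 0.00606), and the differentiated arrays 0.91 ± 0.11 above the knockout arrays (adjusted p = 1.55e-05). Under median scaling in place of quantile normalization the knockout difference was 0.49 and did not pass (adjusted p = 0.0877).

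The other Irf9 probe, ILMN_2636339, lay nearer the background, with 5.88, 5.69 and 5.76 in differentiated arrays, 4.91, 4.90 and 5.02 in knockout arrays and 4.48, 4.54 and 5.07 in undifferentiated flox/delta arrays. Only replicate 3 of the undifferentiated flox/delta arrays detected it. Its rise with differentiation was 1.08 ± 0.14 (adjusted p = 5.37e-05). Its knockout difference of 0.25 ± 0.14 missed the threshold (adjusted p = 0.175), and the groups overlapped. Without undifferentiated flox/delta replicate 3 that difference was 0.44 and passed (adjusted p = 0.00661), but against arrays that did not detect the probe.

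Ifi27, which encodes a small interferon-induced membrane protein, differed in all 3 comparisons on both of its probes. Probe ILMN_2681232 gave 8.69, 8.81 and 8.59 in differentiated arrays, 6.21, 6.17 and 6.17 in knockout arrays and 7.26, 7.27 and 7.38 in undifferentiated flox/delta arrays. The spread within each group was small beside the distance between groups, and no groups overlapped. The rise with differentiation was 1.39 ± 0.09 (2.63-fold, adjusted p = 1.47e-07) and the difference with knockout was -1.12 ± 0.09 (2.17-fold lower, adjusted p = 1.64e-06). Differentiated arrays were 5.71-fold above knockout arrays (2.51 ± 0.09, adjusted p = 4.63e-10).

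The second Ifi27 probe, ILMN_3125606, showed the same order, with 9.28, 9.52 and 9.47 in differentiated arrays, 6.61, 6.33 and 6.52 in knockout arrays and 8.0, 7.76 and 7.90 in undifferentiated flox/delta arrays. Its differences were 1.54 ± 0.11 with differentiation (adjusted p = 3.06e-07), -1.40 ± 0.11 with knockout (adjusted p = 1.15e-06) and 2.94 ± 0.11 between differentiated and knockout arrays (adjusted p = 5.71e-10).

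Rsad2 encodes viperin, an antiviral enzyme that makes a chain-terminating nucleotide. Its probe, ILMN_1225204, gave 4.99, 5.41 and 5.20 in differentiated arrays, 7.35, 7.49 and 7.46 in knockout arrays and 6.84, 6.04 and 6.07 in undifferentiated flox/delta arrays. All 9 arrays detected it, and the 3 groups did not overlap, in the reverse of the Ifi27 order. Rsad2 fell with differentiation (-1.11 ± 0.19, 2.16-fold lower, adjusted p = 0.000421) and rose with knockout (1.12 ± 0.19, 2.17-fold, adjusted p = 0.000497). Differentiated arrays lay 4.69-fold below knockout arrays (-2.23 ± 0.19, adjusted p = 7.99e-07). With another background correction and median scaling the differentiation difference was -0.59 and just missed the threshold (adjusted p = 0.0552).

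Ifit3 encodes a cytoplasmic antiviral adaptor of the IFIT family. Its tested probe, ILMN_2944666, had 5.24, 5.31 and 5.35 in differentiated arrays, 4.43, 4.95 and 4.50 in knockout arrays and 4.45, 4.49 and 4.59 in undifferentiated flox/delta arrays. It was detected on all 3 differentiated arrays, on knockout replicate 2 and on no undifferentiated flox/delta array. Against the background level it was at least 1.47-fold higher with differentiation (fitted difference 0.79 ± 0.13, adjusted p = 0.000301). Its knockout difference was 0.12 ± 0.13 (adjusted p = 0.497). Of the Ifit3 probes not tested, ILMN_1246194 was detected on 1 of 9 arrays and ILMN_1230458 on 0 of 9.

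Ifitm3 encodes a membrane protein that blocks virus entry. Its probe, ILMN_2658501, had 5.86, 5.34 and 5.23 in differentiated arrays, 5.35, 5.95 and 5.47 in knockout arrays and 4.31, 6.07 and 4.71 in undifferentiated flox/delta arrays. The undifferentiated flox/delta arrays held both the lowest and the highest of the 9 values, and only replicate 2 of them detected the probe. Neither differentiation (0.44 ± 0.36, adjusted p = 0.328) nor knockout (0.56 ± 0.36, adjusted p = 0.225) passed. Replicate 2 decided this: without it the differences were 0.96 ± 0.22 with differentiation (adjusted p = 0.00439) and 1.07 ± 0.22 with knockout (adjusted p = 0.00253). The undifferentiated flox/delta arrays then left did not detect the probe, so these differences are against undetected values.

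Tap1 encodes a subunit of the peptide transporter. Its probe, ILMN_1250409, had 4.58, 4.61 and 4.51 in differentiated arrays, none detected, 5.20, 5.28 and 5.19 in knockout arrays and 5.18, 4.95 and 4.89 in undifferentiated flox/delta arrays. It was at least 1.27-fold lower with differentiation (fitted difference -0.44 ± 0.10, adjusted p = 0.0028) and at least 1.47-fold lower in differentiated than in knockout arrays (adjusted p = 0.000103). The knockout arrays lay just above all undifferentiated flox/delta arrays, at 0.22 ± 0.10, without passing (adjusted p = 0.0957), and did pass without undifferentiated flox/delta replicate 1 (0.30, adjusted p = 0.0239). The differentiation call was lost under 4 alternative processings, among them the deposited normalized table (-0.14, adjusted p = 0.0772).

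Tapbp, which encodes tapasin, moved the other way. Probe ILMN_1226819 had 6.04, 6.0 and 6.30 in differentiated arrays, 4.91, 4.90 and 4.98 in knockout arrays and 5.04, 4.64 and 4.54 in undifferentiated flox/delta arrays. Differentiated arrays stood above all others, by 1.37 ± 0.13 against undifferentiated flox/delta (adjusted p = 4.12e-06) and 1.18 ± 0.13 against knockout arrays (adjusted p = 8.81e-06). The knockout difference was 0.19 ± 0.13 (adjusted p = 0.258) and became 0.34 (adjusted p = 0.0315) without undifferentiated flox/delta replicate 1. That replicate was the only undifferentiated flox/delta array that detected the probe, so 0.34 is against undetected values.

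The second Tapbp probe, ILMN_3155492, had 4.98, 5.67 and 5.41 in differentiated arrays, 4.59, 4.55 and 4.52 in knockout arrays and 4.84, 4.6 and 4.64 in undifferentiated flox/delta arrays. It was detected on all differentiated arrays and on 1 of the other 6. It rose with differentiation by 0.66 ± 0.15 (adjusted p = 0.00305; 0.32 and adjusted p = 0.0868 with normexp and median scaling) and was at least 1.51-fold higher in differentiated than in knockout arrays (adjusted p = 0.000565). Its knockout difference was -0.14 ± 0.15 (adjusted p = 0.482).

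Psmb8, a catalytic immunoproteasome subunit, was detected on 0 of the 9 arrays of hybridization 1. Its values of 4.42, 4.36 and 4.48 in differentiated arrays, 4.66, 4.64 and 4.50 in knockout arrays and 4.55, 4.64 and 4.50 in undifferentiated flox/delta arrays are background values and were not tested.

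B2m was detected on all 19 arrays by 2 of its 3 probes. Probe ILMN_1216746 had 10.94, 10.95 and 11.05 in differentiated arrays, 11.27, 11.25 and 11.39 in knockout arrays and 11.34, 11.31 and 11.25 in undifferentiated flox/delta arrays. The differentiated arrays lay below all others, by a small step of -0.32 ± 0.09 against undifferentiated flox/delta (1.25-fold lower, adjusted p = 0.00915). The second probe, ILMN_2739999, gave 10.86, 10.95 and 10.93 in differentiated arrays, 11.09, 11.22 and 11.34 in knockout arrays and 11.26, 11.21 and 11.05 in undifferentiated flox/delta arrays. Its difference of -0.26 ± 0.10 passed narrowly (adjusted p = 0.0462) and no longer passed in 5 of 6 fits that left out 1 array (adjusted p = 0.077 to 0.124).

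B2m on ILMN_1216746 also lost its differentiation call under median scaling (-0.42, adjusted p = 0.145). Knockout and undifferentiated flox/delta cells had B2m levels whose difference was 0.01 on ILMN_1216746 (95% interval -0.19 to 0.20) and 0.04 on ILMN_2739999 (95% interval -0.18 to 0.26), which bounds a knockout difference on these arrays without showing that there was none. The third probe, ILMN_2670561, was detected on no array of either set.

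**Figure D2:**
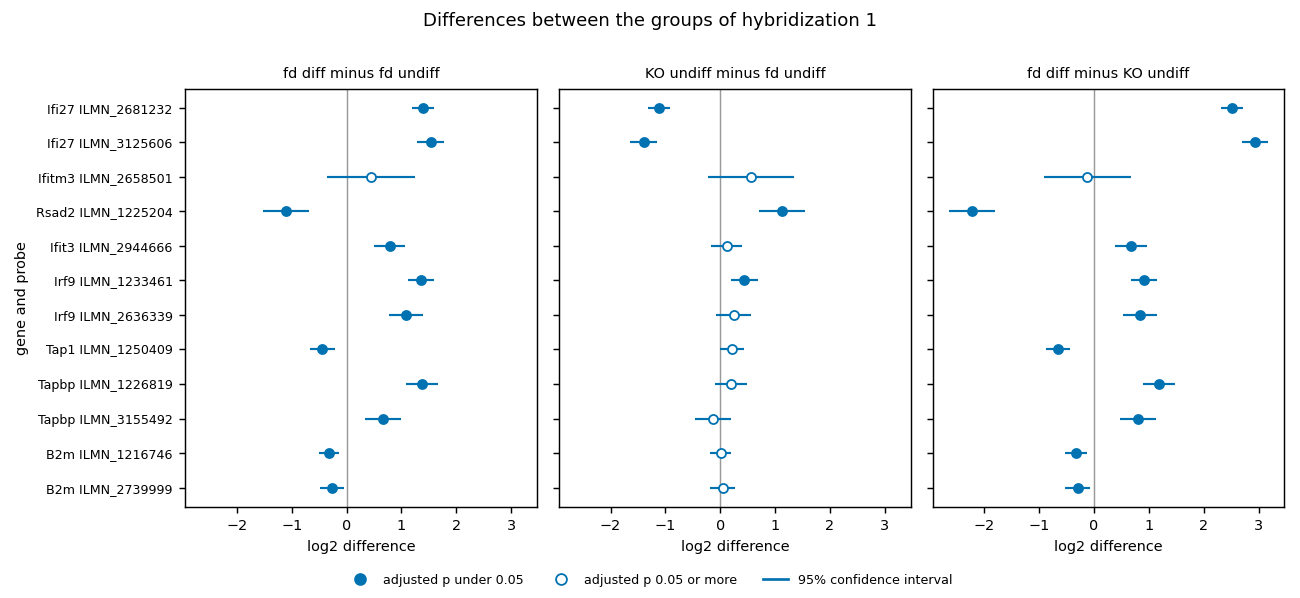
Log2 differences of the tested member probes in hybridization 1, with 95% intervals, for differentiated minus undifferentiated flox/delta, knockout minus undifferentiated flox/delta and differentiated minus knockout cells. Ifi27 and Rsad2 lie on opposite sides of 0 in each of the 3 comparisons.

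Genes of the wider pathway passed in both directions with differentiation, at shares to be read beside 26.6% of all probes higher and 27.1% lower. Of 18 measured genes of interferon sensing and signalling, 5 rose and 1 fell (median 0.13), with Socs3, a feedback inhibitor of cytokine signalling, at 3.44 ± 0.12 (adjusted p = 5.66e-10). Stat3, a transcription factor of cytokine signalling, rose by 0.71, the adaptor gene Myd88 by 0.53, and the receptor kinase gene Jak1 was at least 1.43-fold higher. Of 22 other measured interferon-induced genes, 6 rose and 5 fell (median -0.06). Among the 4 with the largest differences were 3 genes of guanylate-binding proteins, GTPases that attack intracellular pathogens, while Gbp4, Gbp7 and Gbp9 had no kept probe in this set. Gbp2 was at least 52.9-fold higher on its brighter probe, with 1.60 on its other probe, Gbp1 (annotated Gbp2b) was at least 11.5-fold higher, and Gbp3 rose by 1.29. Pml, a nuclear body protein gene, fell by 1.35.

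With knockout, 9 of the 18 signalling genes rose and 1 fell (median 0.29), as did 9 and 1 of the 22 interferon-induced genes (median 0.21). Socs3 rose by 1.73 ± 0.12 (adjusted p = 3.95e-07), the transcription factor gene Irf2 by 0.70, and Usp18, a brake on interferon signalling, was at least 1.31-fold higher. Tyk2, a receptor kinase gene, rose by 0.59 on 1 probe, with -0.25 and -0.02 on the others. Gbp3 rose by 1.97, Gbp2 was at least 2.91-fold higher on 1 probe with 0.09 on the other, the antibody receptor gene Trim21 rose by 1.28 on 1 probe with 0.05 on the other, and Parp12, an ADP-ribosyltransferase gene, was at least 1.96-fold higher. These counts are to be read beside 25.1% of all probes higher and 24.5% lower with knockout (49.6% in either direction).

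Differentiated cells exceeded knockout cells in 4 of 18 signalling genes and lay below them in 7 (median -0.10). For the other interferon-induced genes these counts were 4 and 9 of 22 (median -0.29). Over all probes 32.5% were higher and 34.9% lower. Gbp2 was higher in differentiated cells by 4.18 on its brighter probe, with 1.51 on its other probe, Gbp1 at least 11.4-fold, Socs3 by 1.71, Stat3 by 1.27 and Myd88 by 1.06. Lower in differentiated cells were Tyk2 on its brightest probe (-1.02, with 0.03 and -0.18 on the others), Pml (-1.56) and Samhd1 (-1.47), which degrades nucleotides that viruses need.

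Antigen processing and presentation was measured less completely, with 9 of 33 genes on the array passing the detection rule. With differentiation 3 rose and 1 fell (median 0.05), and in none of the 3 comparisons did the share that passed exceed the 53.7%, 49.6% and 67.4% of all probes. Psme1, a proteasome activator subunit gene, rose by 0.55, Tap2, the partner of Tap1, by 0.39, and H2-Ke6, a dehydrogenase gene named for its place in the MHC region, by 0.47. The immunoproteasome gene Psmb10 fell by 0.51. With knockout 1 rose and 1 fell (median 0.10). Psme1 rose by 0.64, and H2-DMa, which encodes a peptide exchange factor of MHC class II, fell by 1.57. Between differentiated and knockout cells 2 were higher and 1 lower (median 0.01), with differences of 1.42 for H2-DMa, 0.38 for H2-Ke6 and -0.34 for Psmb10. Of 3 constitutive proteasome genes replaced in the immunoproteasome, 0 passed with differentiation, and Psmb6 fell by 0.32 with knockout.

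The probes of the MHC class I heavy chain genes H2-K1 and H2-D1, which B2m accompanies, were not tested in either set, nor were those of Ifit1, Mx1, Oas2, Cxcl10, Irf7 and Ifnb1. An undetected probe is a limit of that probe and no measure of absent transcript.

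Other cell type markers moved with these groups as follows. The summed signal of 8 fibroblast and feeder markers was 113 to 143 in differentiated arrays, 294 to 307 in knockout arrays and 31 to 37 in undifferentiated flox/delta arrays. Acta2 was detected on every differentiated array and Dcn on every knockout array, with the other 7 undetected in each of these groups. All 8 were undetected in undifferentiated flox/delta arrays. For 7 endothelial markers the summed signal was 29 to 36, 60 to 64 and 35 to 47 in the same order of groups. All 7 were undetected in differentiated and in undifferentiated flox/delta arrays. In knockout arrays 4 were undetected, Pecam1 and Cdh5 among them, and 1 was detected on every array. For the microglia and macrophage markers the summed signal was 63 to 64, 58 to 65 and 57 to 71. For the glial markers it was 36243 to 38660, 19462 to 20368 and 24116 to 24900. For 8 neuron markers it was 5414 to 6018, 3714 to 4927 and 4344 to 4982, with 5 detected on every array of each group. For 6 embryonic stem cell markers it was 56 to 219, 130 to 256 and 94 to 608. Of these, 3, 1 and 4 were detected on every array of the group. The part of these markers in the member values was not tested. Of the 14 microglia and macrophage markers on the array, 12 to 14 were detected on no array of a group, and 0 on every array of any group.

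Giving let-7 to knockout cells was followed by no member call. Of the 12 probes, 0 passed, beside 5 of 13617 probes overall (0.0367%), and 12 of 12 differences were positive, against 47.9% of all probes. At an unadjusted p under 0.05 there were 5 of 12, both Ifi27 probes, Ifitm3, the lower Irf9 probe and Tap1, beside 16.7% of all probes. The median difference was 0.46, against -0.015 over all probes. These shares describe 12 probes on the same 6 arrays, which are not independent of each other.

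Giving miR-125 was followed by 0 of 12 calls at the adjusted threshold, beside 0% of all probes, and by 0 of 12 at an unadjusted p under 0.05, beside 18.6%. Of the 12 differences 10 were positive, against 49.6% of all probes, and the median difference was 0.22, against -0.003 over all probes. In the direct comparison of let-7 with miR-125, 0 of 12 passed, beside 0.602% of all probes (82 probes), and 3 of 12 had an unadjusted p under 0.05, both Ifi27 probes and B2m on ILMN_1216746, beside 17.6%. The median difference was 0.26, against -0.008 over all probes. The pairing of replicates by tamoxifen treatment moved the overall counts: with the replicate number as a block, 0 probes passed for let-7 and 562 for let-7 against miR-125, where 1 of the 12 member probes, Ifi27 on ILMN_3125606, then passed. The let-7 and miR-125 comparisons share mock replicates 2 and 3 of hybridization 3.

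**Figure D3:**
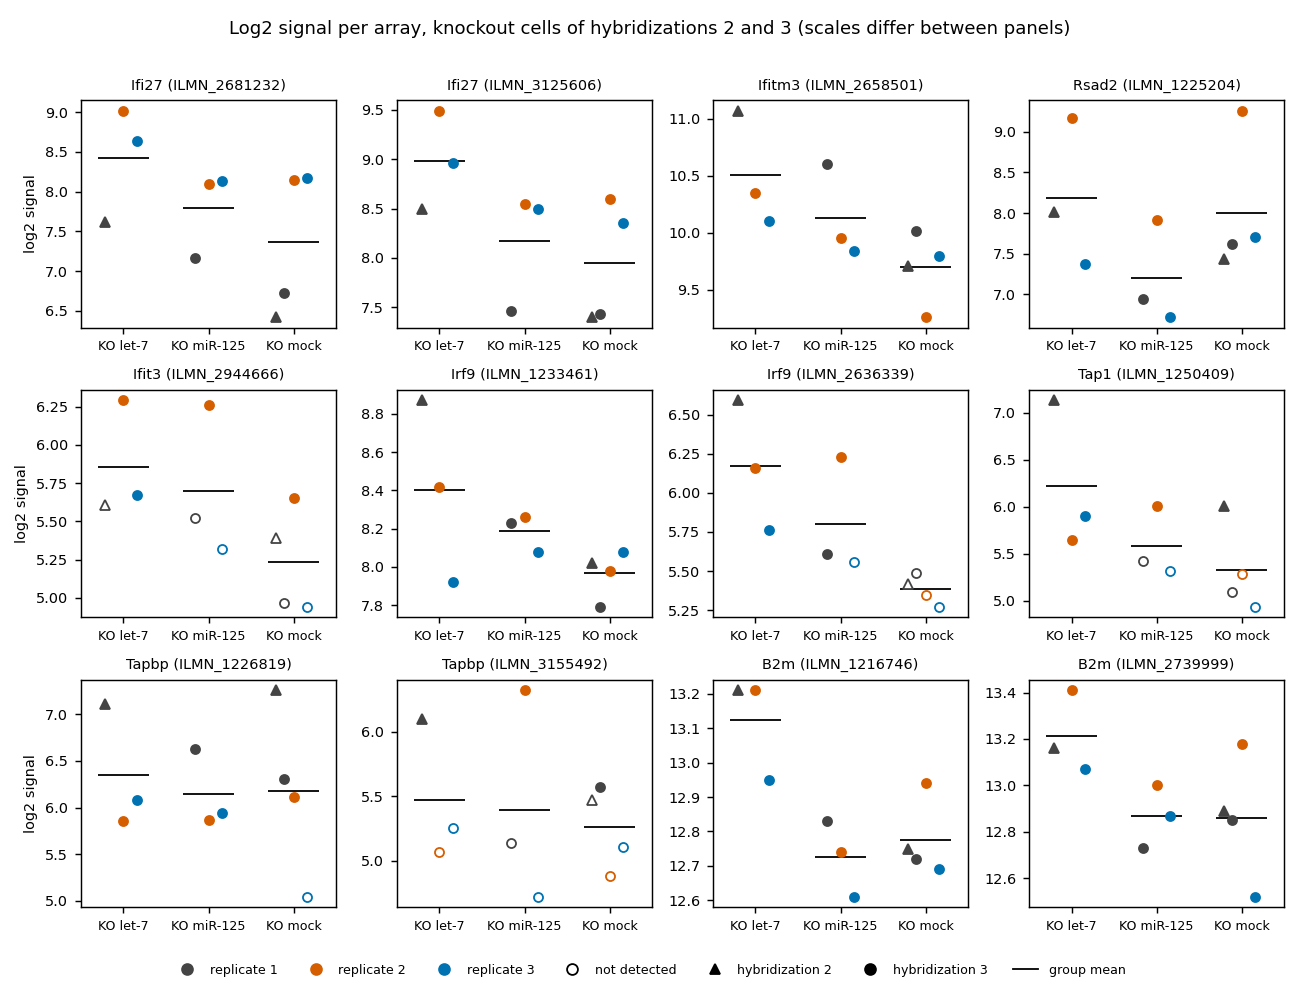
Log2 signal of each tested member probe in the 10 arrays of hybridizations 2 and 3, with let-7, miR-125 and mock from left to right, 1 point per array, open where the probe was not detected, and a bar at the group mean (over all 4 mock arrays). Mock replicate 2 stands above the other mock arrays for Rsad2, at 9.26 against 7.44 to 7.71.

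Irf9 was detected on all 10 arrays with ILMN_1233461, at 8.87, 8.42 and 7.92 with let-7, 8.23, 8.26 and 8.08 with miR-125 and 8.02 (replicate 1, hybridization 2), 7.79 (replicate 1, hybridization 3), 7.98 and 8.08 with mock. Replicates 1 and 2 of let-7 and of miR-125 lay above the mock range. The differences from mock were 0.38 ± 0.21 for let-7 (adjusted p = 0.413) and 0.24 ± 0.14 for miR-125 (adjusted p = 0.41). The other probe, ILMN_2636339, was detected on 3 of 3 let-7 arrays, 2 of 3 miR-125 arrays and 0 of 4 mock arrays. Its values were 6.59, 6.16 and 5.76 with let-7, 5.61, 6.23 and 5.56 with miR-125 and 5.42, 5.49, 5.35 and 5.27 with mock. Let-7 and miR-125 arrays did not overlap with mock arrays, but the fitted differences of 0.82 ± 0.18 (adjusted p = 0.16) and 0.43 ± 0.21 (adjusted p = 0.326) are against undetected values. Group means against the background level were 1.52-fold higher with let-7 and 1.18-fold higher with miR-125. Neither difference passed, so these folds are not lower bounds.

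Ifi27 was higher with let-7 than with mock in 3 of 3 replicate pairs on both probes. The share of all probes with 3 of 3 pairs on the same side was not counted, here and for the members below. Probe ILMN_2681232 had 7.62, 9.02 and 8.64 with let-7, 7.16, 8.10 and 8.14 with miR-125, and 6.42 (replicate 1, hybridization 2), 6.73 (replicate 1, hybridization 3), 8.15 and 8.17 with mock. Replicate 1 was the lowest in every group, and let-7 and mock arrays overlapped when replicates were not matched. The pair differences were 1.2, 0.87 and 0.47 for let-7 and 0.43, -0.06 and -0.02 for miR-125. The fitted differences were 0.84 ± 0.18 for let-7 (adjusted p = 0.16) and 0.12 ± 0.45 for miR-125 (adjusted p = 0.925).

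The second Ifi27 probe, ILMN_3125606, had 8.49, 9.49 and 8.96 with let-7, 7.46, 8.55 and 8.49 with miR-125, and 7.40, 7.43, 8.60 and 8.35 with mock. Its pair differences were 1.08, 0.89 and 0.60 for let-7 and 0.03, -0.05 and 0.14 for miR-125. The fitted let-7 difference was 0.86 ± 0.19 (adjusted p = 0.16). Within hybridization 3 alone it was 1.10 (adjusted p = 0.489), but there mock replicate 1 (7.43) entered without a let-7 partner. Replicates 2 and 3, paired within that hybridization, differed by 0.89 and 0.60. Both Ifi27 probes and Ifitm3 passed for let-7 under 3 alternative processings, including the deposited normalized table (Ifi27 0.52 and 0.61, adjusted p = 0.0384 and 0.0374, and Ifitm3 0.80, adjusted p = 0.0341). Over all probes the let-7 calls there rose from 5 to 261 (normexp and median scaling), 357 (no background correction) and 341 (deposited table). With the replicate block 0 probes passed. Let-7 exceeded miR-125 by 1.05 ± 0.38 (adjusted p = 0.204), and with the replicate block by 0.77 ± 0.14, which passed (adjusted p = 0.0415).

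Ifitm3 had 11.07, 10.35 and 10.10 with let-7, 10.60, 9.95 and 9.84 with miR-125 and 9.71, 10.02, 9.26 and 9.80 with mock. All let-7 arrays lay above all mock arrays, with differences of 1.36, 1.09 and 0.29 in the 3 pairs and 0.91 ± 0.22 in the fit (adjusted p = 0.17). For miR-125 the pair differences were 0.58, 0.69 and 0.04, also above 0 in 3 of 3, and the fitted difference was 0.44 ± 0.27 (adjusted p = 0.436). By rank, Ifitm3 lay above 78.0% to 90.5% of all probes on the arrays of hybridizations 2 and 3, but above 60.8% to 65.9% on the knockout arrays of hybridization 1. The hybridization and the culture cannot be told apart there.

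Rsad2 was the only tested member lower than its paired mock array in 3 of 3 miR-125 pairs, a count with no share of all probes beside it. It had 8.02, 9.17 and 7.38 with let-7, 6.95, 7.92 and 6.72 with miR-125, and 7.44 (replicate 1, hybridization 2), 7.62 (replicate 1, hybridization 3), 9.26 and 7.71 with mock. Replicate 2 was the highest array of each group. The pair differences were 0.58, -0.09 and -0.33 for let-7 and -0.67, -1.34 and -0.99 for miR-125. The fitted differences were 0.05 ± 0.57 for let-7 (adjusted p = 0.971) and -1.0 ± 0.50 for miR-125 (adjusted p = 0.345). Without mock replicate 2 they were 0.57 and -0.47. With replicate 2 left out of both groups and the rest paired, a setting chosen after seeing the data, they were 0.13 and -0.83. With the replicate block the miR-125 difference was -1.0 ± 0.16 and still missed the threshold (adjusted p = 0.0841). Let-7 against miR-125 gave 1.17 ± 0.60 (adjusted p = 0.351).

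Ifit3, on ILMN_2944666, had 5.61, 6.29 and 5.67 with let-7, 5.52, 6.26 and 5.32 with miR-125 and 5.39, 4.97, 5.65 and 4.94 with mock. It was detected on 2, 1 and 1 of these arrays, so that most values lie at background. The let-7 difference was 0.53 ± 0.26 (adjusted p = 0.361) and the miR-125 difference 0.51 ± 0.30 (adjusted p = 0.417).

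Tap1 was detected on all 3 let-7 arrays, 1 miR-125 array and 1 of 4 mock arrays. Its values were 7.13, 5.64 and 5.90 with let-7, 5.42, 6.01 and 5.31 with miR-125 and 6.01 (replicate 1, hybridization 2), 5.09, 5.28 and 4.93 with mock. Let-7 was above its paired mock array in 3 of 3 pairs, at 1.12, 0.36 and 0.97, and the fitted difference was 0.82 ± 0.18 (adjusted p = 0.16). For miR-125 it was 0.48 ± 0.22 (adjusted p = 0.296), against 3 undetected mock arrays. The group mean was 1.02-fold higher against the background level, which is no lower bound because the difference did not pass.

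Tapbp probe ILMN_1226819 had 7.11, 5.86 and 6.08 with let-7, 6.63, 5.87 and 5.94 with miR-125 and 7.26, 6.31, 6.11 and 5.04 with mock, and the arrays of all 3 groups overlapped. Its let-7 difference was 0.21 ± 0.30 (adjusted p = 0.749), with pair differences of -0.15, -0.25 and 1.04. Its miR-125 difference was 0.33 ± 0.37 (adjusted p = 0.688). Probe ILMN_3155492 was detected on 1 let-7, 1 miR-125 and 1 mock array. Its let-7 difference of 0.32 ± 0.16 (adjusted p = 0.361) was positive in 3 of 3 pairs, but -0.02 within hybridization 3 alone, where all 3 mock arrays entered.

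Psmb8 was detected on let-7 replicates 1 and 2, at 5.63 and 6.25, and on none of the other 8 arrays, whose values lay between 4.77 and 5.50. It was not tested. B2m on ILMN_1216746 had 13.21, 13.21 and 12.95 with let-7, 12.83, 12.74 and 12.61 with miR-125 and 12.75, 12.72, 12.94 and 12.69 with mock. All let-7 arrays lay above all mock arrays, by a narrow margin at replicate 3 of let-7 and replicate 2 of mock. The let-7 difference was 0.33 ± 0.15 (adjusted p = 0.329), the miR-125 difference -0.06 ± 0.14 (adjusted p = 0.865) and let-7 against miR-125 0.38 ± 0.14 (adjusted p = 0.21).

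B2m on ILMN_2739999 had 13.16, 13.41 and 13.07 with let-7, 12.73, 13 and 12.87 with miR-125 and 12.89, 12.85, 13.18 and 12.52 with mock. Its let-7 difference was 0.35 ± 0.21 (adjusted p = 0.441) and its miR-125 difference 0.02 ± 0.19 (adjusted p = 0.974). The 95% interval for miR-125 ran from -0.44 to 0.48, and a missed threshold does not show equal levels.

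**Figure D4:**
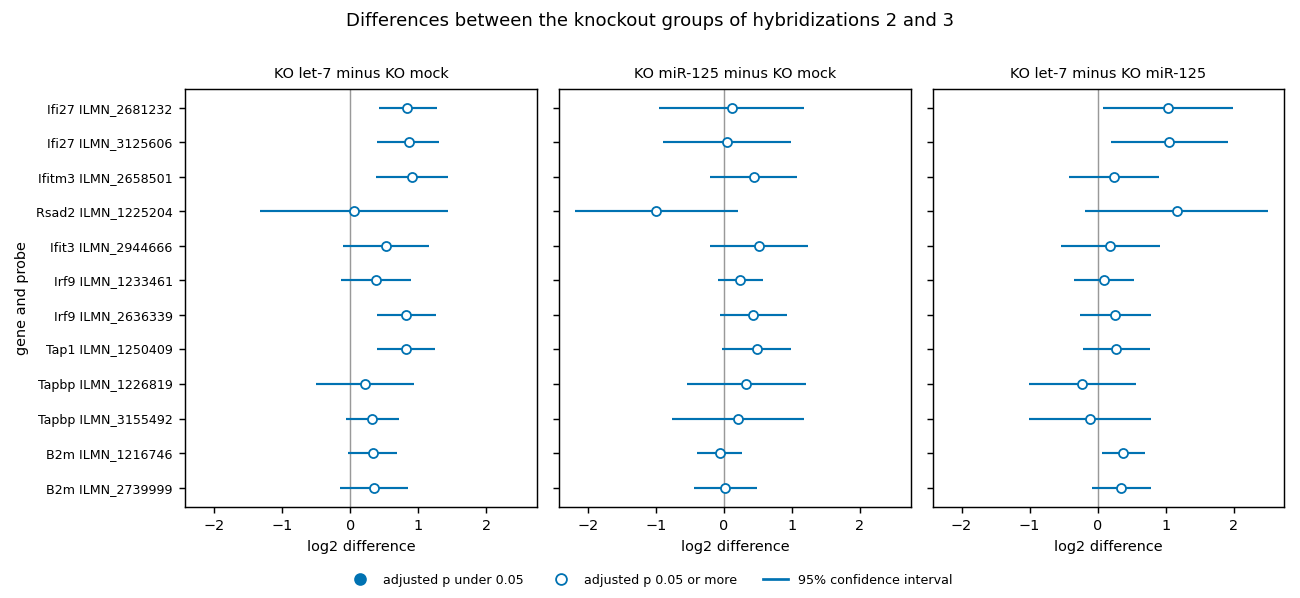
Log2 differences of the tested member probes with 95% intervals for let-7 minus mock, miR-125 minus mock and let-7 minus miR-125. For let-7 all 12 values are above 0 and for miR-125 10 of 12, none past the adjusted threshold.

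**Figure D5:**
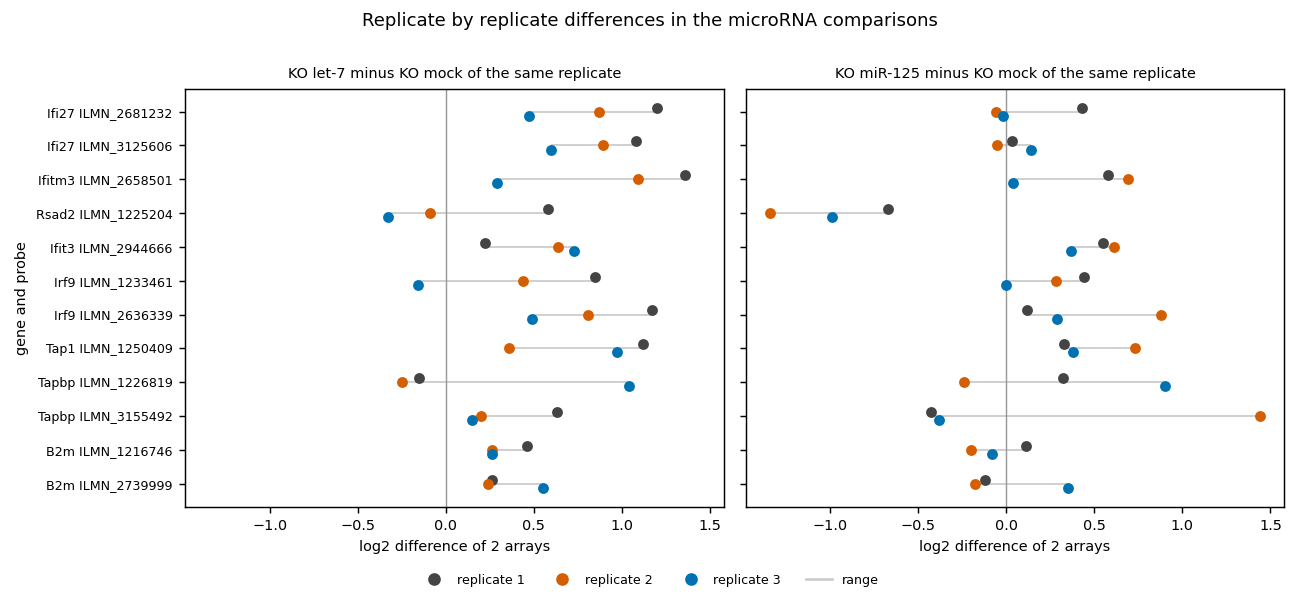
Log2 difference of each let-7 or miR-125 array from the mock array of the same replicate number and hybridization, 1 point per pair. Both Ifi27 probes, Ifitm3, Ifit3, Irf9 ILMN_2636339, Tap1, Tapbp ILMN_3155492 and both B2m probes are above 0 in 3 of 3 let-7 pairs. Ifitm3, Ifit3, Irf9 ILMN_2636339 and Tap1 are above 0, and Rsad2 is below 0, in 3 of 3 miR-125 pairs. The share of all probes with 3 of 3 pairs on the same side was not counted.

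None of the wider lists held a gene that passed in these comparisons. With let-7, 0 of 20 signalling genes, 0 of 30 other interferon-induced genes and 0 of 13 antigen presentation genes passed, with medians of 0.01, 0.16 and 0.13. With miR-125 the medians were -0.08, -0.07 and 0.14, and for let-7 against miR-125 0.15, 0.37 and -0.01. Of 3 constitutive proteasome genes 0 passed in any of the 3 comparisons. The summed fibroblast and feeder markers were 324 to 2149 in let-7, 4092 to 7694 in miR-125 and 998 to 3724 in mock arrays, and their part in the member values was not tested.

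The genes most like each member were taken over the 17 arrays of hybridizations 1 and 3, by Pearson correlation after each hybridization was centred on its own mean. The values share arrays and normalization and are a description. For Ifi27 they were Nrxn2 (r = 0.978) and Ank (0.961), for Irf9 Plpp1 (0.963) and Il6st (0.958), for Rsad2 Nat2 (0.928) and Slc31a1 (0.911), and for Tapbp Tmem100 (0.934) and Mfsd11 (0.923). Ifit3 was nearest to Col6a1 (0.886), B2m to Serpinf1 (0.865) and Tap1 to Ak1 (0.822), while Ifitm3 had no gene closer than Chmp4c (0.704).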

How the data were processed

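The table analysed holds, per the file headers, 1 unnormalized intensity with its detection p-value per probe and array (25697 probes), and its lowest values show that background had not been subtracted. The other deposited normalized tables contain quantile-normalized intensity (differentiation, knockout) or log2 signal (let-7, miR-125), as the values show, and served as an alternative. Limma is named, without a version, in the submitters' processing notes. The 24 sample entries describe 19 arrays. Probe names come from the platform annotation: 23978 probes have 1 symbol and 1719 none.

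Each set of arrays (hybridization 1, and hybridizations 2 and 3) was background corrected and quantile normalized with neqc (offset 16) of limma 3.58.1 in R 4.3.3. Probes detected (p under 0.05) on at least 3 arrays were kept, 13280 and 13617. Differences were tested by probe with limma (two-sided, Benjamini-Hochberg over all kept probes, threshold 0.05) and are given in log2 ± SE. The let-7 comparison took, of the replicate 1 mock arrays, the one in hybridization 2 and had a hybridization term. The miR-125 comparison stayed in hybridization 3. Let-7 against miR-125 used all 10 arrays with that term, counting both mock replicate 1 arrays, which may be the same RNA. Folds against a group with no detected array compare group means with the background level and leave out the spread. They are called lower bounds only where the difference passed. The fit was tested on simulated data.

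Per the labels, replicate numbers of the let-7, miR-125 and mock arrays mark tamoxifen treatments. Deviations of same-numbered arrays correlated at 0.61 to 0.86 (let-7), 0.30 to 0.49 (miR-125) and 0.29 to 0.36 (between them). The 0.86 is of the only 2 arrays of hybridization 2, so it also carries the hybridization and cannot show pairing. Within hybridization 3, let-7 replicates 2 and 3 gave 0.61 with their own mock number and 0.36 and 0.35 with the other. For miR-125, all in hybridization 3, other numbers gave -0.33 to -0.01. With the labels, these values were taken to pair the samples. The main fits held no replicate term, so their SEs do not use this pairing. For Rsad2 with miR-125 the SE was 0.50 in the main fit and 0.16 with the replicate block. The deposited normalized tables number replicates 1 and 3 of undifferentiated flox/delta and knockout cells the other way round. The unnormalized numbering was kept. Every member probe is named. From each pathway list up to 4 passing genes with the largest differences are named, each by its brightest kept probe. Ifi27l1, a synonym of Ifi27, was left out of its list. The members and lists were chosen with earlier results of these data known. Alternatives covered background correction, normalization, offset, detection filter, arrays fitted, 1 probe per gene, the replicate block and leaving out arrays.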

Additional observations from a re-analysis of the deposited data

Results flagged for a closer look

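Rsad2 in mock replicate 2 had a log2 signal of 9.26, against 7.44 and 7.62 in the mock replicate 1 arrays and 7.71 in mock replicate 3. Its gap to the nearest of the other 3 arrays was 0.854 of the whole range, above Dixon's 95% critical value for 4 samples. Both replicate 1 arrays belong to 1 tamoxifen treatment, so the 4 arrays hold only 3 replicates and the critical value counts a repeat hybridization as a separate sample. Chance alone flags about 1 in 20 groups, and 12 member probes were examined. Replicate 2 was also the highest array with let-7 (9.17) and with miR-125 (7.92).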

How the results depend on the processing

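Among the values of the 12 member probes under the alternatives, 1131 of 1169 stayed on the same side of the threshold, 23 lost it, 15 gained it and 0 changed sign past it. This total includes the microRNA comparisons, where 0 members passed in the main fits and no call could be lost. In hybridization 1, B2m ILMN_2739999 kept its differentiation call under 7 of 15 alternatives and Tap1 under 12 of 16. The lost calls were 1 or 2 probes each of B2m, Tap1, Tapbp, Rsad2 and Irf9, mainly under median scaling, and the cause was not tested. Ifi27 passed in all 3 hybridization 1 comparisons under every alternative run. In hybridization 1, same-numbered arrays correlated at -0.07 to 0.17 (differentiation, 2 of 6 arrays best with their own number), 0.08 to 0.24 (knockout, 5 of 6) and -0.04 to 0.15 (differentiated against knockout, 3 of 6). In the exchanged numbering of the deposited tables, differentiated replicates 1, 2 and 3 correlated with undifferentiated flox/delta partners at 0.09, 0.17 and 0.14, each array's highest value. With knockout partners the values were 0, 0.15 and 0.11. Whether the numbers pair these arrays is not settled, and the block used the unnormalized numbering. With the replicate block 7224, 6674 and 9042 probes passed in these comparisons, against 7135, 6582 and 8956 without it. The block ended the differentiation call of B2m ILMN_2739999 (-0.26, adjusted p = 0.0636), and in the microRNA comparisons it changed no member call other than that of Ifi27 given above.

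With normexp and median scaling 3219 (differentiation), 2396 (knockout) and 5655 probes (differentiated against knockout) passed, and with neqc background correction and median scaling 4498 and 3909 for the first 2. For let-7 the 5 calls, all higher, became 261 with normexp and median scaling (227 higher, 34 lower), 14 with median scaling, 357 without background correction (203 higher, 154 lower), 23 with offset 50 (22 higher, 1 lower), 2 with 1 probe per gene and 341 in the deposited table (197 higher, 144 lower). They became 0 with the replicate block, without a hybridization term and in hybridization 3 alone, 19 with all 10 arrays in 1 fit (16 higher, 3 lower), and 0 to 0 when any 1 array was left out. For miR-125 the 0 calls, with 2526 probes at an unadjusted p under 0.05, became 212, 258, 3 and 348 under normexp with median scaling, no background correction, offset 50 and the deposited table, and 404 with all 10 arrays. Leaving out any 1 array gave 0. For let-7 against miR-125 the 82 calls (33 higher, 49 lower) became 295 (163 higher, 132 lower), 434 and 204 under normexp with median scaling, no background correction and offset 50, 24 without a detection filter (6 higher, 18 lower), 146 at detection p under 0.01, 562 with the replicate block, 0 in hybridization 3 alone and 0 to 71 when 1 array was left out. Without mock replicate 2, a setting chosen after seeing the data, 23 passed (5 higher, 18 lower), and for let-7 with the replicate block and replicate 2 left out in both groups, likewise chosen after seeing the data, 0 passed. Detected probes stood at 2.22 to 3.15 times background in hybridization 1. Differences of dim probes (Ifit3, Tap1, Tapbp ILMN_3155492, and in hybridizations 2 and 3 Irf9 ILMN_2636339) rest on background values where a group was undetected. So do the calls that Ifitm3, Irf9 ILMN_2636339 and Tapbp ILMN_1226819 gained in hybridization 1 when 1 undifferentiated flox/delta array was left out.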
